A study of Danio rerio with 8 samples.

Results

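The amino acid transporter families described here are the zebrafish genes of the solute carrier families *slc1a*, *slc3a*, *slc6a*, *slc7a*, *slc36a*, *slc38a* and *slc43a*. Members were taken by the start of their symbol, found through the RefSeq accession of each array probe, and had to be well above background on at least 1 of 8 liver arrays. This gave 46 of 11918 genes: 9 of *slc1a*, 2 of *slc3a*, 14 of *slc6a*, 7 of *slc7a*, 9 of *slc38a*, 5 of *slc43a* and none of *slc36a*. Another 9 genes had a probe that was above background on no array, and 28 of the 83 family symbols in the reference table matched no probe, among them *slc3a1* and *slc7a11*. One member, *slc7a6os*, carries the prefix but is named for its position beside *slc7a6* and is no transporter.

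Liver RNA came from male zebrafish (*Danio rerio*) 3 months old and bought from a commercial distributor. Fish were kept for 96 h in surface water of the Hun River (mainstream sites H1, H2, H3, H4 and H5), of its tributaries the Dongzhou River (D) and the Xi River (X), or were left untreated (control). For D and X the source names give 97 h. Each of the 8 groups was 1 single-colour Agilent oligonucleotide array of RNA pooled from 5 livers, so the difference of a site from the control rests on a single pair of arrays and carries no p-value.

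Cells take up amino acids and trade them through such carriers. Sodium-coupled carriers of the *slc6a*, *slc1a* and *slc38a* families concentrate amino acids inside the cell. In mammals, exchangers of the *slc7a* family (light chains) reach the cell surface bound to a heavy chain encoded by *Slc3a2*, and swap one amino acid for another. In gut and kidney epithelia of mammals the 2 kinds work in series: a symporter such as the *Slc6a19* product on the luminal side, and exchangers and the uniporter encoded by *Slc43a2* on the blood side. Liver cells use *Slc38a* carriers and cationic carriers such as the *Slc7a2* product to draw amino acids from the blood for protein synthesis, glucose synthesis and ammonia disposal.

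Values are log2 processed signals, quantile normalised over the 8 arrays and averaged over the probes of a gene. They compare arrays for the same gene, never genes with each other. A gene counted as changed when it differed at least 2 fold from the control array. Where no probe of a gene was well above background on 1 array of a comparison, the fold is a lower limit, set by the lowest signal above background on that array, and is written "at least". All 7 comparisons share the 1 control array. The control, H1, H2 and D arrays lay on slide 1 and the H3, H4, H5 and X arrays on slide 2, so for the latter 4 sites slide and river water cannot be told apart. Between 56.5% (H2) and 70.8% (D) of spots were well above background. The median SD of log2 signal over repeated spots was 0.114, which covers error within an array only.

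All 13 hepatocyte markers with a probe were above background on every array, and none changed 2 fold at any site. Their summed signal was 97.58% to 112.9% of that of the control. The highest mean signals were those of *serpina1*, *rbp4* and *apoa1b*, and *fabp10a*, a classical zebrafish liver marker named after its values were seen, gave a log2 signal of 17.03 to 17.67. Markers of other tissues were also above background and differed between arrays. Of 15 or 16 enterocyte markers tested, 13 were lower at H1, 3 at H2, 12 at H3, 2 at H4, 1 at H5, 12 at D and 13 at X. Their summed signal was 41.11%, 81.34%, 39.45%, 96.81%, 92.82%, 20.59% and 28.27% of that of the control in the same order. The 3 brightest were *apoa4b.1* and *rbp2a*, which stayed within 2 fold everywhere, and *apoa4b.2*, which was 2.34-fold lower at H1, 2.95-fold at H3, 15.3-fold at D and 12.0-fold at X. Exocrine pancreas markers such as *prss1* and *amy2a* were lower for 16 of 17 genes at H1, H3 and X, for 14 at D, 9 at H2, 4 at H5 and 0 at H4. Islet markers were lower for 7 of 9 at H1, 8 of 9 at H3 and 8 of 10 at both D and X. Fast skeletal muscle markers were lower for 11 or 12 of 15 or 16 at H1, H3, D and X, and 2 of 5 kidney tubule markers were lower at the same 4 sites. Testis markers were higher for 7, 9 and 5 of 11 at H3, H4 and H5, and heart muscle markers for 8 of 9 at H5. In pooled tissue, fewer cells of a type and less RNA per cell cannot be told apart.

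Transporter genes were more often lower than higher at every site except D. At H1, 8 of the 35 members that could be compared were lower and 3 higher (22.9% and 8.57%), against 8.56% and 6.16% of all genes compared. H2 had 5 lower and 3 higher of 35 (14.3% and 8.57%), against 3.02% and 2.50% of all genes. H3 had the most lower members, 10 of 36 with 2 higher (27.8% and 5.56%), against 9.23% and 8.17%. Over all genes, the share changed in either direction was 14.7% at H1, 5.52% at H2, 17.4% at H3, 11.1% at H4, 7.03% at H5, 20.0% at D and 12.8% at X. At H4, 6 of 38 were lower and 1 higher (15.8% and 2.63%, background 4.36% and 6.77%), and at H5 2 of 35 were lower and 1 higher (5.71% and 2.86%, background 2.91% and 4.12%). X had 9 lower and 2 higher of 39 (23.1% and 5.13%, background 8.41% and 4.44%).

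D was the site with higher members. There 8 of 42 were higher and 7 lower (16.7% lower), against 7.90% and 12.1% of all genes. At 3 fold, the threshold the methods use at D, 1 member was higher and 6 were lower, against 1.84% and 5.93% of all genes. After 75th percentile normalization the split at D became 14 higher and 6 lower, and at H3 it became 4 and 10. The median of all genes at D also moved under that setting, from 0.06 to 0.27. Centring subtracted from each array, gene by gene, the median of the arrays on its slide. Slide 2 holds no control, so centring also removes changes that its sites share. After centring each slide, H4 had 3 higher and 5 lower and X had 3 and 7. Shares of all genes under these settings are not given here, so these counts show only how the calls depend on processing. The median log2 difference of members was -0.13 at H1, -0.14 at H2, 0.19 at H3, -0.13 at H4, 0.18 at H5, 0.29 at D and -0.00 at X, where the medians of all genes were 0.05, 0.01, 0.07, -0.00, 0.00, 0.06 and 0.07. The members' medians lay near 0 at all sites, while single members fell by more than 8 fold.

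**Figure D1:**
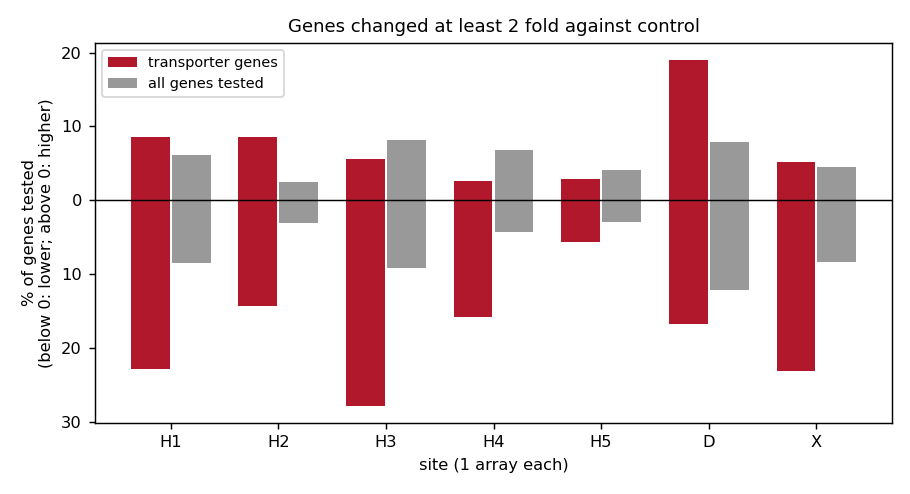
Share of the transporter genes (red) and of all genes compared (grey) that were at least 2 fold higher (above 0) or lower (below 0) than the control, in percent of the genes compared, at each site (1 array each, so no error bars). The share of lower transporter genes exceeded that of all genes at all 7 sites, with 27.8% at H3 and 5.71% at H5, and only at D did higher members outnumber lower ones.

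A set of 6 members was lower at all of H1, H3, D and X: *slc3a2a*, *slc7a7*, *slc7a8a*, *slc43a2b*, *slc6a19a.1* and *slc6a9*. They were 6 of the 33 members compared at all 4 sites (18.2%), where 451 of 10311 genes (4.37%) did the same. These 4 sites were not set in advance but picked from these data, so the shares are a description only. *slc6a9* counts here through 1 of its 2 probes, which was not well above background at any of the 4 sites. The first 5 members of the set encode, by their mammalian counterparts, the heavy chain, the light chains and the uniporter of the blood side and the symporter of the luminal side of absorbing epithelia. They are called the epithelial set below by these counterparts alone, and the cell type behind their signal was not tested. The set was picked by its values and leaves out other members with epithelial counterparts. Among these, *slc6a19b*, *slc6a18* and *slc1a1* were not lower at all 4 sites.

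The heavy chain gene *slc3a2a* had a log2 signal of 13.08 in the control, 10.92 at H1, 12.30 at H2, 10.84 at H3, 13.48 at H4, 12.59 at H5, 11.21 at D and 10.43 at X. The H1, H3, D and X arrays were low and the other 3 sites lay near the control. The difference was 4.47-fold at H1, 4.70-fold at H3, 3.65-fold at D and 6.27-fold at X, from 1 probe.

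Its partner *slc7a7*, the light chain that exchanges cationic against neutral amino acids, gave 12.52 in the control, 10.63 at H1, 11.72 at H2, 8.45 at H3, 12.19 at H4, 12.50 at H5, 9.43 at D and 9.54 at X. All 7 site arrays were below the control, though H5 only by 0.02. Besides *slc7a7*, 3 members (*slc43a2b*, *slc6a9* and *slc7a2*) were below the control at all 7 sites, together 4 of the 24 members measured on every array, where 6.01% of such genes were. *slc6a9* counts here by its mean, while its probe above background on every array was above the control at H2, H3, H5, D and X. The 1 probe of *slc7a7* was 3.70-fold lower at H1, 16.8-fold at H3, 8.49-fold at D and 7.88-fold at X.

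The second light chain of this kind, *slc7a8a*, carries neutral amino acids. Its mean over 4 probes was 10.87 in the control, 8.54 at H1, 10.22 at H2, 7.80 at H3, 10.87 at H4, 10.65 at H5, 7.80 at D and 8.17 at X. The order of the arrays was close to that of *slc7a7*, with H4 and H5 near the control. At H1 it was 5.0-fold lower, a log2 difference of -2.32 with an SD over probes of 0.85. It was 8.37-fold lower at H3 (SD 0.56, with 1 probe not well above background), 8.36-fold at D (SD 1.91) and 6.47-fold at X (SD 1.16), with all 4 probes lower each time. The probes did not fall alike: at D, 1 of them was not well above background and was at least 27.6-fold lower, another was 13.5-fold lower, and the remaining pair was 2.37-fold and 3.53-fold lower.

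The uniporter gene *slc43a2b* showed 12.37 in the control, 9.95 at H1, 11.12 at H2, 8.04 at H3, 11.09 at H4, 12.13 at H5, 8.96 at D and 8.31 at X. It was changed at 6 of 7 sites, as were *slc6a19a.1* and *slc6a9*, and H5 alone lay within 2 fold. The fold was 5.35 at H1, 2.38 at H2, 20.1 at H3, 2.43 at H4, 10.6 at D and 16.7 at X, lower each time, and both of its probes gave the same side. Of the 8702 genes above background on all 8 arrays, 0.563% were lower at 6 or 7 sites. These genes hold 24 members. Among them are *slc43a2b* and *slc6a9*, the latter counted by a mean over probes that disagree. *slc6a19a.1* is not among them, since it was above background on 5 arrays only. The H4 difference of *slc43a2b* did not hold after centring each slide, when it was -0.44 on the log2 scale. The slide 2 median subtracted there includes the low H3 and X arrays.

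The luminal symporter gene *slc6a19a.1* had the widest range of all members, 8.0 on the log2 scale. Its signal was 11.96 in the control, 4.49 at H1, 9.19 at H2, 9.01 at H3, 9.43 at H4, 12.41 at H5, 4.41 at D and 4.42 at X. On the H1, D and X arrays it was not well above background, H2, H3 and H4 lay in between, and H5 was level with the control. It was at least 38.6-fold lower at H1, at least 79.2-fold at D and at least 45.5-fold at X, and 6.85-fold, 7.75-fold and 5.77-fold lower at H2, H3 and H4. At H4 it was thus lower where *slc3a2a*, *slc7a7* and *slc7a8a* stayed within 2 fold. There was 1 probe, and a tandem copy, *slc6a19a.2*, had no matched probe of its own, so a share of its signal in this probe cannot be told apart.

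Most of the enterocyte markers above were lower at the same 4 sites as these 5 genes. So were most exocrine pancreas, islet and fast skeletal muscle markers. Among the enterocyte markers, the peptide transporter gene *slc15a1b* of the gut brush border was 17.1-fold lower at H1 and at least 135-fold, 334-fold and 192-fold lower at H3, D and X. The fatty acid binding protein gene *fabp2*, chosen after its values were seen and with both probes above background on every array, was 3.51-fold, 18.3-fold, 128-fold and 25.9-fold lower at H1, H3, D and X. The part of gut or other tissue in the 5 transporter differences was not tested. At H2 and H4, where *slc6a19a.1* was 6.85-fold and 5.77-fold lower, most enterocyte markers stayed within 2 fold and 5 values of the list did not. At H2 these were *alpi.2* (8.66-fold lower), *cdx1b* (7.4-fold) and *slc15a1b* (3.14-fold), with 1 of 2 probes of *alpi.2* and of *cdx1b* not well above background there. At H4 they were *alpi.2* (9.22-fold lower) and *apoa4a* (3.41-fold).

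**Figure D2:**
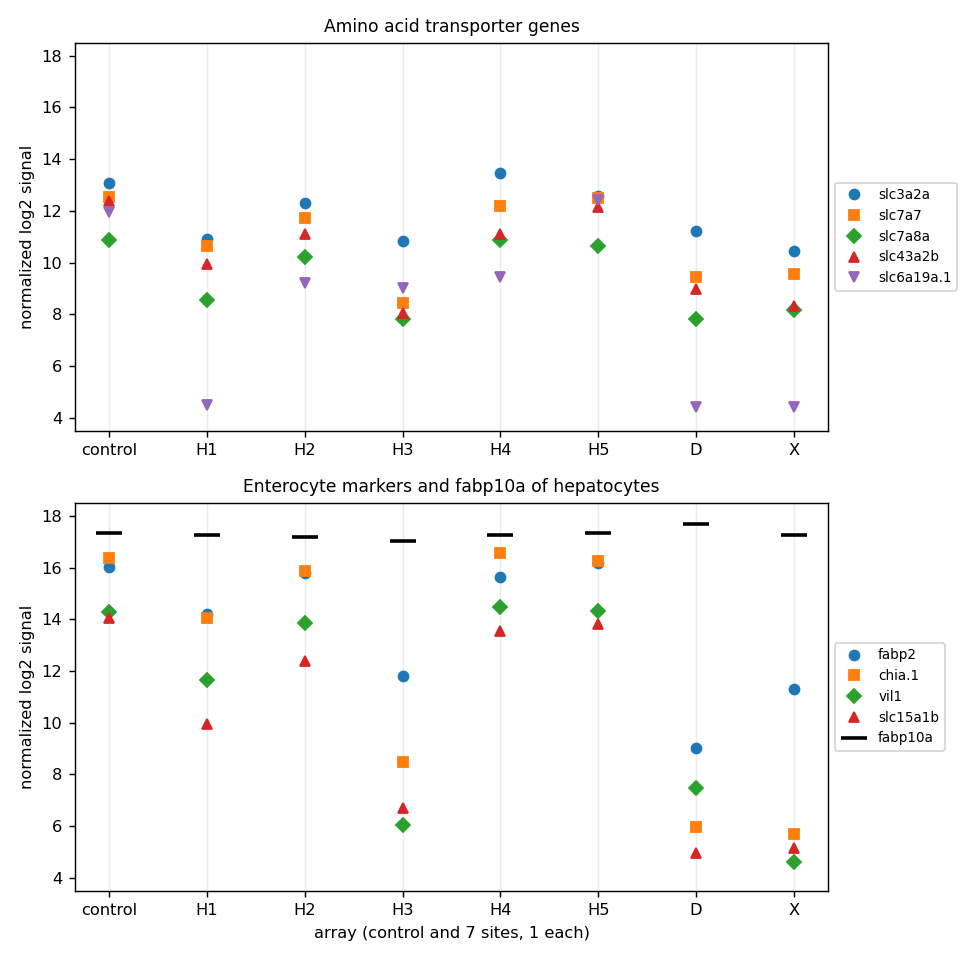
Normalised log2 signal on each of the 8 arrays (1 per group) of 5 transporter genes (upper plot) and of 4 enterocyte markers with the hepatocyte marker *fabp10a* (lower plot). *slc3a2a*, *slc7a7*, *slc7a8a* and *slc43a2b* were low at H1, H3, D and X together with the 4 enterocyte markers plotted. These 4 were picked from the list, and *apoa4b.1* and *rbp2a*, which stayed within 2 fold, are not plotted. *slc6a19a.1* was near 4.4 at H1, D and X, where it was not well above background, and *fabp10a* stayed between 17.03 and 17.67.

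Members of 3 pairs of paralogues ran different courses in the same livers. The second heavy chain gene, *slc3a2b*, was past 2 fold in the other direction from *slc3a2a* at H1 only. It gave 7.66 in the control, 10.37 at H1, 8.75 at H2, 8.02 at H3, 8.53 at H4, 9.19 at H5, 8.27 at D and 7.85 at X, so the control was the lowest array of all. It was 6.51-fold higher at H1 (log2 difference 2.70, SD over 2 probes 0.21), 2.12-fold at H2 and 2.88-fold at H5. At H3, D and X, where *slc3a2a* was lower, *slc3a2b* stayed within 2 fold (log2 differences 0.35, 0.61 and 0.19). On the H1 array *slc3a2a* was in contrast 4.47-fold lower.

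The second uniporter paralogue, *slc43a2a*, was 10.59 in the control and between 10.56 and 12.22 at the sites. It changed only at H1, where it was 3.1-fold higher (log2 difference 1.63, 1 probe) and *slc43a2b* was 5.35-fold lower. At H1, then, the a copy of the heavy chain and the b copy of the uniporter were lower, and their counterparts were higher.

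The second luminal symporter gene, *slc6a19b*, had a log2 signal of 10.43 in the control, 5.92 at H1, 8.94 at H2, 5.61 at H3, 10.44 at H4, 7.12 at H5, 10.39 at D and 8.06 at X. H4 and D were level with the control, and H1 and H3 were not well above background. It was at least 13.4-fold lower at H1, 2.82-fold at H2, at least 11.1-fold at H3, 9.91-fold at H5 and 5.16-fold at X. Both genes of the pair were lower at H1, H2, H3 and X, and they parted at D, H4 and H5. *slc6a19a.1* was at least 79.2-fold lower at D and 5.77-fold lower at H4, where *slc6a19b* differed by -0.04 and 0.01 on the log2 scale. The reverse held at H5, where *slc6a19a.1* differed by 0.45. At D, 12 of 16 enterocyte markers were lower, and *fabp6*, *apoa4b.1* and *rbp2a* stayed within 2 fold as *slc6a19b* did. The remaining marker, *alpi.1*, was not well above background in the control and was at least 1.49-fold higher at D. The X value lost its call after centring each slide (-0.30).

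**Figure D3:**
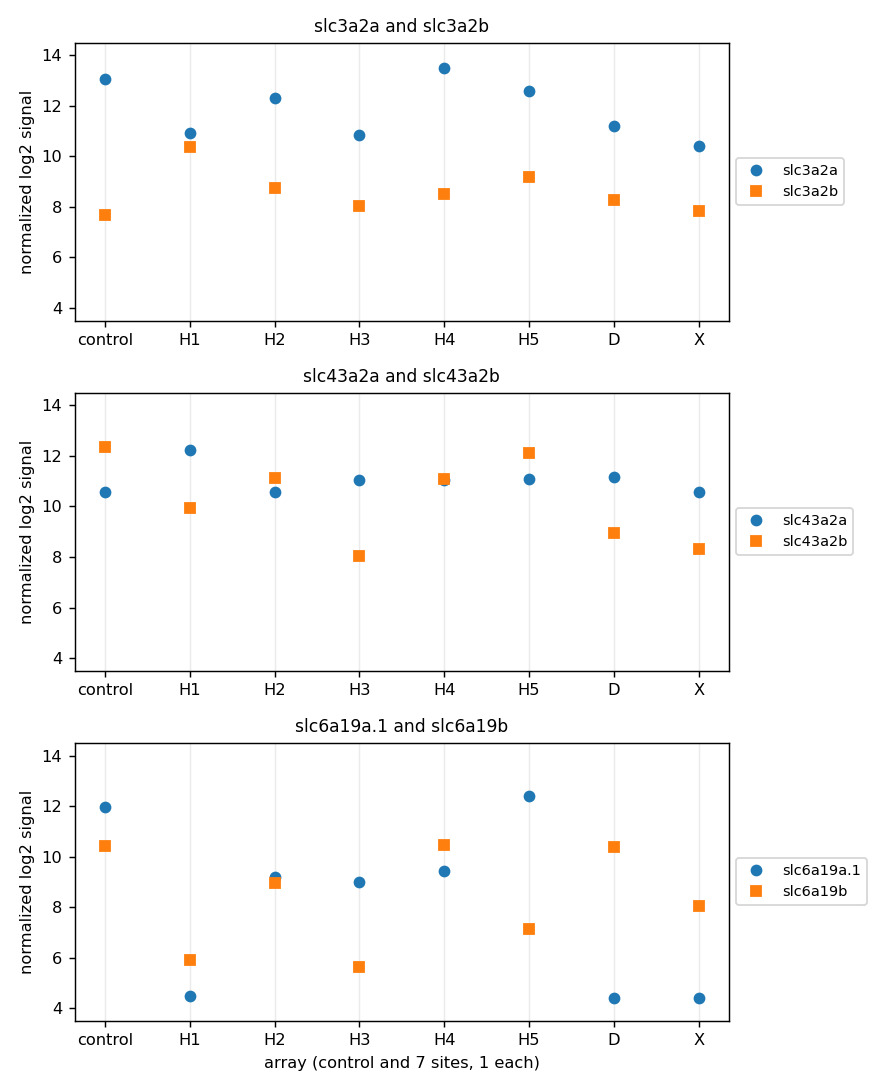
Normalised log2 signal of each member of 3 paralogue pairs on the 8 arrays (1 per group); only differences between arrays of the same gene are comparable, not levels between genes. *slc3a2b* rose from 7.66 in the control to 10.37 at H1 while *slc3a2a* fell from 13.08 to 10.92. *slc6a19a.1* and *slc6a19b* were both low at H1, H2, H3 and X and parted at D, H4 and H5.

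The cationic amino acid carriers did not move together. *slc7a2* encodes a carrier of arginine, lysine and ornithine found in mammalian liver. Its mean over 2 probes was 11.53 in the control, 9.10 at H1, 10.14 at H2, 10.09 at H3, 9.79 at H4, 10.88 at H5, 10.68 at D and 11.49 at X. Every site array was below the control, with X within 0.05. It was 5.39-fold lower at H1, 2.63-fold at H2, 2.72-fold at H3 and 3.34-fold at H4. At X and D, where all 5 genes named the epithelial set were lower, it stayed within 2 fold. Its probes differed in size: at H3 the first differed by -2.81 on the log2 scale and the second by -0.07, and at H1 they differed by -3.67 and -1.19. Only at H1 and H4 did each of them pass 2 fold.

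*slc7a3a*, a second carrier of cationic amino acids, gave 10.29 in the control, 11.19 at H1, 10.40 at H2, 11.28 at H3, 8.51 at H4, 10.55 at H5, 11.42 at D and 8.36 at X. The H4 and X arrays stood below all others. It was 2.20-fold higher at D, 3.42-fold lower at H4 and 3.79-fold lower at X, with both probes on the same side. Both low arrays lay on slide 2, as did H3 and H5, which were above the control at 11.28 and 10.55. After centring each slide, by a median that includes the low arrays, the differences were -0.51 at H4 and -0.66 at X.

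The 2 other light chains were near background. *slc7a5*, the large neutral amino acid exchanger, was not well above background in the control and at least 2.28-fold higher at D. *slc7a6* was above background at H2 only, with 9.99 there against 4.91 in the control, 5.34 at H1, 4.83 at H3, 5.44 at H4, 6.81 at H5, 4.96 at D and 4.76 at X, which makes it at least 10.1-fold higher at H2. It stood alone among light chains in this, and its neighbour *slc7a6os* was at 11.01 in the control and 10.98 at H2. Each of these genes had 1 probe.

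**Figure D4:**
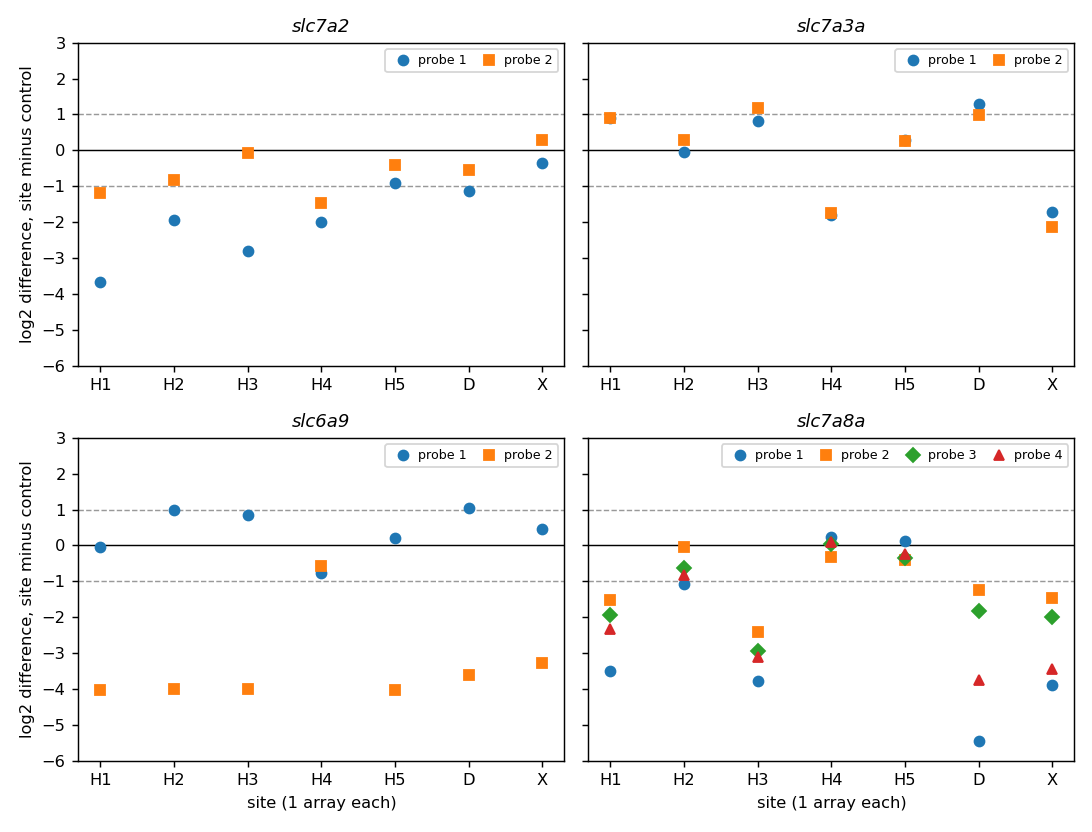
Log2 difference from the control of each probe (1 symbol per probe) of 4 transporter genes at the 7 sites; dashed lines mark 2 fold. The 2 *slc7a3a* probes and the 4 *slc7a8a* probes lay on the same side wherever the gene was changed, while the first *slc6a9* probe lay between -0.76 and 1.05 and the second, plotted as measured, lay between -4.04 and -0.56 and was above background at H4 only among the sites.

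In the *slc6a* family the remaining changes depended in part on the probe. The sixth member that was lower at H1, H3, D and X, the glycine carrier gene *slc6a9*, rests on probes that disagree. The gene mean was 8.26 in the control, 6.23 at H1, 6.76 at H2, 6.68 at H3, 7.60 at H4, 6.34 at H5, 6.97 at D and 6.85 at X, below the control at every site and past 2 fold at all except H4. The first probe, above background on all 8 arrays, was instead higher at 5 sites, by up to 1.05 at D, and lower by only 0.03 at H1. The second was above background only in the control and at H4, and was at least 2.22-fold (H2) to at least 6.89-fold (D) lower where it was dim. The direction of this gene therefore depends on the probe. The proline carrier gene *slc6a7* was 3.08-fold lower at H3 from 3 probes with log2 differences of -2.97, 0.33 and -2.22. The first and the last were not well above background at H3 and give at least 4.08-fold and at least 4.11-fold. The mean of *slc6a7* stayed within 2 fold at H1, D and X. There the same 2 probes were 3.14-fold and 3.11-fold lower at H1, 3.71-fold and 2.72-fold at D, and 2.87-fold and 2.45-fold at X. The remaining probe was higher, by 0.43, 0.82 and 0.65 on the log2 scale.

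Higher values in this family came mostly from D. The GABA carrier gene *slc6a11a* was 3.29-fold higher there (7.60 in the control and 9.32 at D), the only member higher by 3 fold at D. *slc6a18*, a neutral amino acid carrier of the mammalian kidney that lies beside *slc6a19a.1*, was 2.39-fold higher at D, and the serotonin carrier gene *slc6a4b* at least 2.18-fold. For *slc6a11a* and *slc6a18* the values rest on 1 of 2 and 1 of 3 probes, since the others were above background on no array. *slc6a16b*, a family member without a clear substrate, was 2.60-fold higher at H3, with all 4 of its probes above the control (SD 0.75). The prefix thus also holds carriers of monoamines and GABA, which are not amino acids of protein.

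Glutamate carriers of the *slc1a* family were higher than or within 2 fold of the control wherever they could be compared. *slc1a1*, the glutamate and aspartate carrier of epithelia and neurons, gave 6.70 in the control, 6.70 at H1, 8.81 at H2, 8.17 at H3, 9.77 at H4, 6.33 at H5, 6.53 at D and 7.89 at X. It was not well above background on the control, H1 and H5 arrays, and was at least 4.32-fold higher at H2, at least 2.78-fold at H3, at least 8.41-fold at H4 and at least 2.28-fold at X. These values rest on 1 of its 2 probes, since the other was above background on no array. H2 is on the slide of the control. After centring each slide the difference was 0.15 at H3. At X the limit on a rise fell below 0 and was set to 0.00. The slide 2 median subtracted here includes the high H3, H4 and X arrays, so these values cannot show whether *slc1a1* rose. Its sites are unlike those of the epithelial set, since H4 was its highest array and H1 was among its dim ones.

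The other changes of *slc1a* were at the tributaries. *slc1a7b* was 2.40-fold higher at D and 2.62-fold at X, and *slc1a6* and *slc1a7a* were at least 2.30-fold and at least 2.17-fold higher at D. *slc1a4*, a neutral amino acid exchanger, was at least 3.93-fold lower at D and at least 2.26-fold lower at X. *slc1a3a*, a glutamate carrier known from mammalian glia, had a log2 signal of 12.64 to 14.24 and stayed within 2 fold at all sites.

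Of the 8 members higher at D, 4 (*slc1a6*, *slc1a7a*, *slc6a4b* and *slc7a5*) were not well above background in the control. The D array had the lowest signal that still counted as above background, 5.65, where the other arrays had 6.45 to 7.29, and it had the most members above background, 40 against 31 to 36. The other members above background at D and not in the control were *slc1a1*, *slc1a3b*, *slc38a8a*, *slc38a9* and *slc6a17*. None of these was 2 fold higher there. Among all 1182 genes above background at D and not in the control, 13.6% were at least 2 fold higher. At the other sites this share was 26.6% at H1, 46.9% at H2, 40.4% at H3, 34.4% at H4, 33.4% at H5 and 20.0% at X, which is the background of the lower limits given for *slc38a9*, *slc7a6* and *slc1a1*. The part of this difference between arrays in the higher members was not tested.

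The *slc38a* family holds the sodium-coupled neutral amino acid carriers that liver cells use. Of its 9 members, 2 of 8 compared were lower at H4 (25.0%, against 4.36% of all genes), 1 of 7 was higher at H1 (14.3%, against 6.16%) and 1 of 7 was lower at H3 (14.3%, against 9.23%), and none changed at the other 4 sites. *slc38a2*, which mammalian cells induce when amino acids are short, had a log2 signal of 13.68 in the control and 12.51 to 14.14 at the sites. *slc38a4*, a carrier enriched in mammalian liver, had 13.43 in the control and 12.23 to 14.41 at the sites. Both were lower at H4 alone, *slc38a2* by 2.25-fold and *slc38a4* by 2.30-fold (log2 difference -1.20, SD over 5 probes 0.42), with all 5 probes of the latter lower. *slc38a5b* was 2.13-fold lower at H3, with 1 of its 2 probes not well above background on either array. Its other probe, above background on every array, was 2.31-fold lower at H3 and 2.50-fold at H1. At H1 the mean of both stayed within 2 fold (log2 difference -0.75). The gene lost its H3 call after centring each slide. *slc38a9*, whose mammalian product senses arginine at the lysosome, was at least 3.93-fold higher at H1 and not well above background in the control. Its value rests on 1 of 2 probes, since the other was above background on no array.

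Of the 24 members above background on all 8 arrays, 10 stayed within 2 fold at all 7 sites (41.7%), against 64.0% of 8702 genes. They were *slc38a3a*, a glutamine carrier of liver, *slc38a6*, the lysosomal *slc38a7*, *slc43a1b*, *slc43a3b*, the taurine carrier gene *slc6a6b*, the neighbours *slc6a22.1* and *slc6a22.2*, *slc1a3a* and *slc7a6os*. For *slc38a6* this holds for a mean over 3 probes that disagreed, with log2 differences from -1.07 to 1.87 at H3 and from -0.57 to 2.99 at H5. *slc38a7* varied least, from 8.52 to 9.03, and *slc43a1b*, the branched-chain amino acid carrier known from mammalian liver, ran from 12.25 to 13.49. A further 9 members with signal on 1 to 6 arrays changed at no site: *slc1a2b*, *slc1a3b* and *slc1a5* of *slc1a*, the dopamine and serotonin carrier genes *slc6a3* and *slc6a4a*, *slc6a17*, *slc38a8a*, *slc38a11* and *slc43a3a*. Their log2 signals ranged over 1.19 (*slc1a3b*) to 3.04 (*slc38a8a*), mostly near background.

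**Figure D5:**
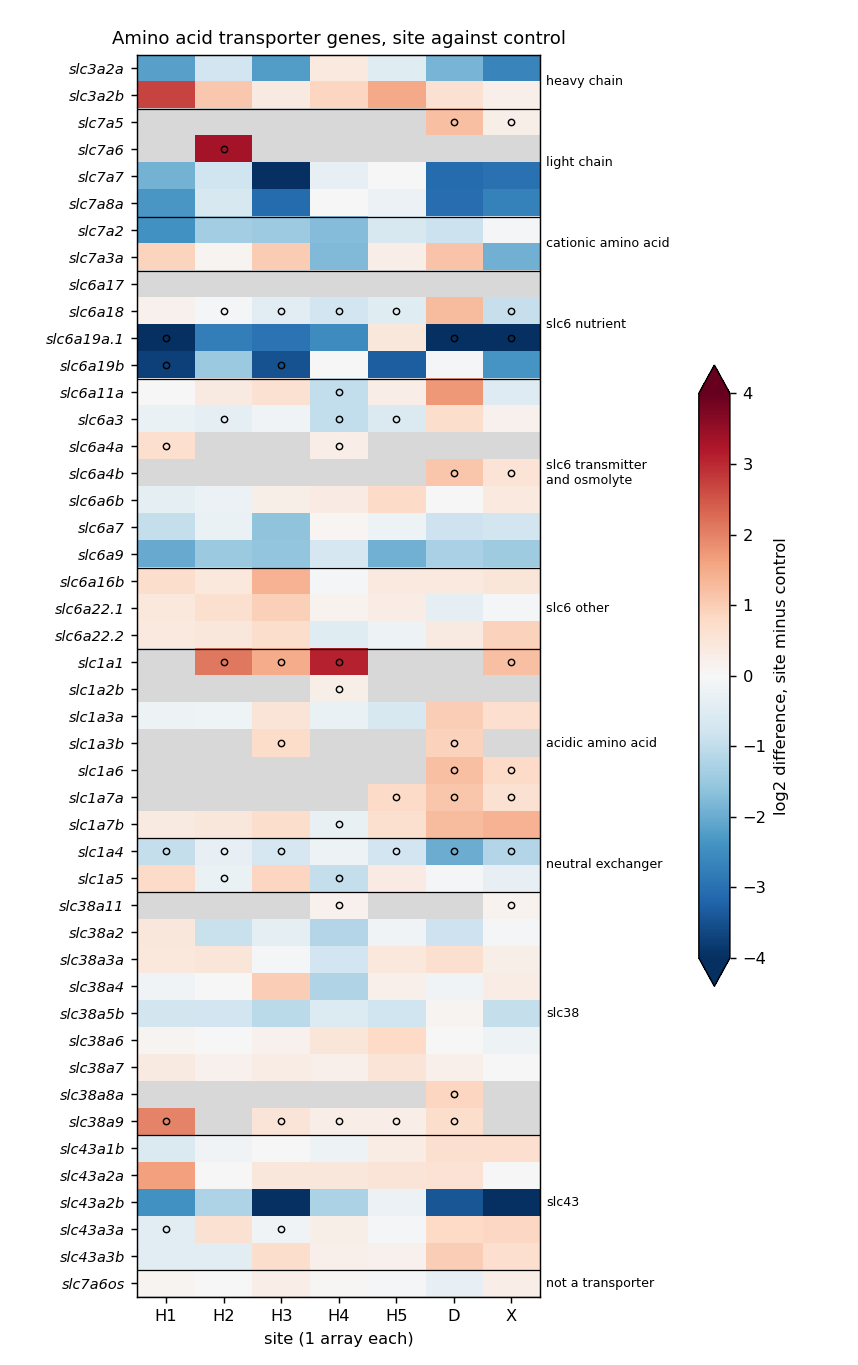
Log2 difference from the control for all 46 members (rows, by family) at the 7 sites (columns, 1 array each), red higher and blue lower, clipped at 4 on either side; an open circle marks a lower limit and grey a gene that could not be compared. The 47 lower values past 2 fold include *slc3a2a*, *slc7a7*, *slc7a8a*, *slc43a2b*, *slc6a19a.1* and *slc6a9* at each of H1, H3, D and X, and 8 of the 20 higher ones are at D.

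Genes that work with these carriers were followed in 4 lists. Of 31 genes of the amino acid stress response, which shortage of amino acids switches on in mammals, 12 were higher and 0 lower at H1 (38.7% higher, against 6.16% of all genes; median 0.66), and 6 were higher and 1 lower of 29 at H3 (20.7% higher, against 8.17%). At D 0 were higher and 4 lower of 29 (13.8% lower, against 12.1%), and the other 4 sites had 1 or 2 higher and 0 to 3 lower. The transcription factor gene *atf3* was 31.9-fold higher at H1 and 39.5-fold at H3, and *ppp1r15a*, which restores translation after stress, was 2.89-fold and 5.97-fold higher there. The hormone gene *fgf21* was at least 5.12-fold higher at H1, and the lipoprotein receptor gene *vldlr* was 9.94-fold lower at D, where 1 of its 3 probes was above background. H1 was also a site where *slc3a2b*, *slc43a2a* and *slc38a9* were higher. At H3, *slc3a2b* and *slc43a2a* stayed within 2 fold (log2 differences 0.35 and 0.46). *slc3a2b* was also higher at H2 and H5, where 1 and 2 genes of this list were higher. A link between the list and these carriers was not tested.

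Other amino acid and peptide carriers and partners had 0 to 2 higher and 0 to 3 lower of 14 or 15 genes per site, with most lower at H1 (20.0%), H3, H4 and D (21.4% each), against 8.56%, 9.23%, 4.36% and 12.1% of all genes. Besides *slc15a1b*, this list held the mitochondrial ornithine carrier gene *slc25a15b*, which was at least 3.22-fold higher at H1, and the vesicular GABA carrier gene *slc32a1*, 3.24-fold lower at H4 with 1 of 2 probes above background there. Among 13 to 15 enzymes of glutamate, glutamine and glutathione, 3 were higher at H1 and H3, 2 at H2 and H5, 1 at D and 0 at H4 and X, and 1 was lower at each of H1, D and X. The higher shares were 20.0% at H1, 15.4% at H2, 23.1% at H3, 13.3% at H5 and 6.67% at D, against 6.16%, 2.50%, 8.17%, 4.12% and 7.90% of all genes. The glutathione synthetase gene *gss* was 2.87-fold and *ggt1a*, whose product splits glutathione outside the cell, at least 4.66-fold higher at H1. Glutamine synthetase gene *glula* was 2.30-fold lower at H1 and 2.66-fold higher at H3, and the glutaminase gene *gls2b* was 2.57-fold higher at H2 and 2.21-fold lower at D. Of 16 to 18 genes by which mTORC1 senses amino acids, 3 were higher at D (16.7%, against 7.90% of all genes) and 1 each at H1 and H3 (5.88% and 6.25%, against 6.16% and 8.17%), with 0 lower at any site: *lamtor1* by 2.97-fold and *tsc1b* by 2.29-fold at D, *tsc1a* by 2.70-fold at H3 and *flcn* by 2.66-fold at H1.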

How the data were processed

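Liver RNA of 8 groups was measured on 1 array each; further arrays were not used here. The authors deposited, per spot, scanner intensity values (the background-subtracted processed signal, the median signals and marks for poor spots), read with Agilent Feature Extraction, version 11.5.1.1 in the file headers and 10.7 in the processing notes. A second table deposited by the authors holds log2 values; these equal the log2 of the processed signal less an offset set at the 75th percentile of each array (at least 99.92% of probes within 0.01, column medians -2.47 to -2.15), while the methods name quantile normalization in GeneSpring 13.0.

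Here log2 processed signals were quantile normalised over 8 arrays. Control spots and probes marked in at least 50% of their spots (46 to 188 per array) were left out, repeated spots averaged (50 probes), and probes above background on no array dropped. No spot was saturated. RefSeq accessions gave symbols to 26094 of 43603 probes (13443 genes; names from assembly GRCz12tu only, so no coordinates are given). Members rest on 75 probes, with 1 probe for 30 members.

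Every member changed at least 2 fold at 1 site or more is named, with all arrays where it changed at 3 sites or by 8 fold; up to 4 genes per pathway list and up to 3 of the brightest per marker list are named. Members, lists and this rule were chosen with earlier results of these data known. With 1 array per group no test was possible. Marker lists for brain and neuron, red cell, leukocyte and bile duct cell were also counted, with at most 2, 1, 7 and 3 genes lower at a site (7 leukocyte genes at H3). Python 3.11.15, numpy 2.4.6, pandas 2.3.3, R 4.3.3 and limma 3.58.1 (normexp, offset 50) were used. The comparison was tested on simulated data. No sequence is shown, and 1 gene of the lists is not reported here by name.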

Additional observations from a re-analysis of the deposited data

Results flagged for a closer look

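The cationic amino acid carrier gene *slc7a3a* moved in opposite directions at different sites against the same control: its log2 difference was 1.13 at D, -1.77 at H4 and -1.92 at X, with both probes on the same side at each. With 1 array per site, the difference between sites was not tested. D shares a slide with the control and H4 and X do not. H3 and H5 lay on the same slide as H4 and X, and their log2 differences were 1.00 and 0.27. The part of the slide was not tested.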

How the results depend on the processing

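No paired analysis was possible because each group had 1 array and 1 replicate number. The 67 differences past 2 fold were recomputed under 11 settings, which gave 685 values: 605 kept their direction and stayed past 2 fold, 61 kept their direction only and 19 reversed. Without the control, against the median of the other arrays, *slc43a2b* was at 1.17 (H2) and 1.14 (H4), *slc6a19a.1* at 0.18 (H2) and 0.42 (H4), *slc6a19b* at 0.87 (H2) and *slc6a9* at 0.21 (D) and 0.09 (X); this reference itself holds the low arrays. With only probes above background on both arrays, or with the brightest probe, *slc6a7* was at 0.33 (H3) and *slc6a9* at 1.00 (H2), 0.84 (H3), 0.21 (H5), 1.05 (D) and 0.45 (X), since their other probes dropped out.

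At 3 fold, the counts of changed members per site were 3 at H2, 7 at H3, 4 at H4, 7 at D (also under the methods' rule of 3 fold at D alone) and 7 at X. The counts that follow are at 2 fold again. Shares of all genes under these settings are not given here, so the counts show only how the calls depend on processing. With the median reference there were 7 at H3, 11 at H4 and 7 at H5. Dim values as measured gave 13 at H4, slide centring 5 at H5, normexp 7 at D and 7 at X, and probes above background on both arrays 9 at D and 7 at X. Normexp kept 46 of the 67 calls; the cause was not tested. Slide 1 arrays normalised alone kept all 34 calls of H1, H2 and D. The median log2 difference of members became 0.01 (H2) and 0.02 (H4) with the median reference, 0.06 (H3) after slide centring, 0.05 (H3), 0.00 (H4), 0.00 (H5) and 0.11 (D) with all probes, 0.06 (H3), -0.02 (H5) and 0.16 (D) with marked probes kept, -0.02 (H5) and 0.17 (X) with the brightest probe, and 0.07 (H5) and 0.43 or 0.42 (D) after 75th percentile normalization or with the authors' log2 values. Under these last settings all genes had a median of 0.27 (D) and -0.12 (H4), where the main values gave 0.06 and -0.00. Signals near background limit the 17 differences that are only lower limits. They also limit calls that average in a probe not well above background, such as those of *slc6a9*, *slc6a7* (H3) and *slc7a8a* (H3 and D). With only probes above background on both arrays, 6 of 50 calls reversed.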
